A study of Drosophila melanogaster with 36 samples.

Results

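The comparison described here set orb2-delta-zz embryos against wild-type embryos of Drosophila melanogaster in a single fraction pool and a single hour, pool 3 at 0-1h after egg laying. Its members are the 6 libraries of the series that the labels place in pool 3 at 0-1h, 3 per genotype, of 36 libraries in all. The wild type was w1118, named in the labels as the pre-injected control, and the other stock carried orb2-delta-zz, which by its name lacks the zinc-binding ZZ domain of ORB2. The sources used here do not say whether orb2-delta-zz was kept as more than 1 line, nor how many crosses separate it from w1118. All flies lived at 25 degrees, and embryos of both genotypes were lysed in a buffer with cycloheximide, which holds ribosomes on mRNA, and spun through sucrose of 15 to 45%. Pool 3 is thus a part of each gradient, but the labels do not say which part. Nothing in them says that replicates came from separate fly populations, so the p-values measure the spread between these samples, which may be technical.

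ORB2 is a member of the CPEB family, RNA-binding proteins that attach to the 3' ends of mRNAs and set the length of their poly(A) tails and their translation. It is best known from long-term memory and from spermatogenesis in flies, and the ZZ domain at its C-terminus is a zinc-binding fold thought to hold protein partners. In the hour studied, a fly embryo is a syncytium that lives on RNA supplied by its mother. Its own genome is nearly silent apart from a small set of short, early genes. A level in pool 3 can change because the embryo holds more or less of an RNA, or because more or less of it sediments into that pool. In bulk samples, fewer cells or nuclei with an RNA and less RNA per cell cannot be told apart.

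The deposited values were normalized counts, and 7746 genes were listed at 0-1h, each above 0 in all 12 libraries of that hour. A log2 difference is orb2-delta-zz minus wild type on log2(normalized count + 1), given ± SE, and a gene was called where its Benjamini-Hochberg adjusted p in limma was under 0.05 among 7533 genes with a mean of at least 10. The libraries of pool 3 held 33005709 to 37371090 normalized counts, and the spacing of low values gave 31.1 to 39.1 M reads in 5 of them. That spacing was not resolved in orb2-delta-zz replicate 1, which stood apart in other ways too. In it 144 genes lay more than 4-fold above all 5 other libraries, and in each of the others there was no such gene (0). The 10 most abundant of the 144, named after their values were seen, included the muscle genes Act57B, Mlc2, bt and sls and the laminin gene LanA. Act57B had 12042 normalized counts in that library, 24.6 and 572 in the other orb2-delta-zz replicates, and 516, 86.8 and 39.4 in wild type. Of the 144 genes 47 were also more than 4-fold above all other libraries in pool 1 of the same gradient. In wild type 43 of the 127 that could be tested rose in pool 3 from 1-2h to 2-3h and none (0) fell, where 25.4% of all genes rose and 42.3% fell. Results are therefore given with and without this library where it matters.

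orb2 itself (FBgn0264307, chromosome 3L, 8937100 to 8954463, minus strand, positions as in BDGP6) was present in all 6 libraries. It had 2328, 2285 and 2259 normalized counts in wild type and 1929, 1878 and 1772 in orb2-delta-zz. All 3 orb2-delta-zz values lay below the wild-type values, but the log2 difference of -0.30 ± 0.18 was not called (adjusted p = 0.516, limma over the 12 libraries of the hour). Fitted on the 6 pool 3 libraries alone it was called (adjusted p = 0.0308), and over all alternatives the adjusted p ran from 0.0024, with library weights, to 1, on log2(TPM + 1). A count over the whole gene cannot show a deletion inside it, and 17173 bases of its span are shared with CG43783 on the same strand, so these values do not check the genotype.

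Between the genotypes 571 of 7533 genes were called, which is 7.58%, with 335 higher (4.45%) and 236 lower (3.13%) in orb2-delta-zz. The differences were graded: 108 of the higher genes and 33 of the lower ones differed by less than 1.5-fold, and 51 and 45 by 4-fold or more. The median log2 difference was 0.80 over the higher genes and -1.49 over the lower ones, against 0.03 over all genes tested. Scarcer RNAs were called more often: ranked by mean level and cut into 4 equal groups, 16.7% were called in the lowest group and 1.22% in the highest. On log2(TPM + 1) the split turned, to 139 higher and 191 lower. The number called was 514 without wild-type replicate 1, 256 without its replicate 2 and 334 without its replicate 3. It was 898, 297 and 304 without replicates 1, 2 and 3 of orb2-delta-zz, and 240 genes (147 higher, 93 lower) were called in all of these fits.

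The 15 genes highest in orb2-delta-zz were 11-fold to 168-fold above wild type, and most of them were scarce in wild type. They were chosen for a large log2 difference, and the floor on their level was set on a mean over both genotypes. Their scarcity in wild type therefore follows in part from this choice and is not a separate result. CG12560 (2L, 8008302 to 8009477) had 1.89, 7.36 and 4.55 normalized counts in wild type and 886, 816 and 869 in orb2-delta-zz. This was a log2 difference of 7.39 ± 0.51 (adjusted p = 3.81e-06), the largest among the 15. Arc1, a Gag-derived gene whose protein forms capsids that carry RNA between cells, stood next with 10.3, 14.9 and 6.76 against 1306, 1819 and 1774 normalized counts. CG5096 was even within each genotype, with 18.7, 20.2 and 19.5 in wild type and 1132, 1199 and 1254 in orb2-delta-zz (5.87 ± 0.14, adjusted p = 6.29e-10). By the rule of no overlap, replicate 1 of orb2-delta-zz, which stood apart elsewhere, lay on the side of its own genotype in these genes.

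Several of the higher genes have known products. phr6-4 encodes the photolyase that repairs UV-made (6-4) photoproducts in DNA. It lies on 2L at 20643351 to 20645791, beside CG17470 at 20642306 to 20643244, which was also among the 15. phr6-4 had 212, 205 and 162 normalized counts in wild type and 2995, 3407 and 3110.3 in orb2-delta-zz (4.04 ± 0.13, adjusted p = 8.21e-09). CG17470 rose from 10.3, 8.37 and 12.4 to 351, 479 and 517 (5.30 ± 0.26). Ih, which encodes a hyperpolarization-activated cation channel of neurons, had 15.7, 15.4 and 14.8 against 402, 317 and 389 (4.50 ± 0.37). Kank, a gene for an ankyrin-repeat protein at cell attachments, had 26.9, 34.5 and 27 against 857, 756 and 839 (4.76 ± 0.23). Lztr1, whose product adapts a ubiquitin ligase to Ras proteins, had 229, 213 and 215 against 2679, 2769.5 and 2589 (3.61 ± 0.18, adjusted p = 2.35e-07). For each of these the genotypes were far apart, and no overlap was part of the rule that chose them. Idgf3, a secreted chitinase-like growth factor gene (3.95 ± 0.26), and vir-1, a gene induced by viral infection (3.49 ± 0.20), were in the same group. So were CG3104 (5.28), CG18304 (3.95) and CG31999 (3.45). Lztr1 lies wholly inside CG43867 on the same strand and CG5096 shares 602 bases with gny, so the split of their reads is uncertain. All 15 were called under each of the 17 alternative settings in which they could be tested.

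**Figure D1:**
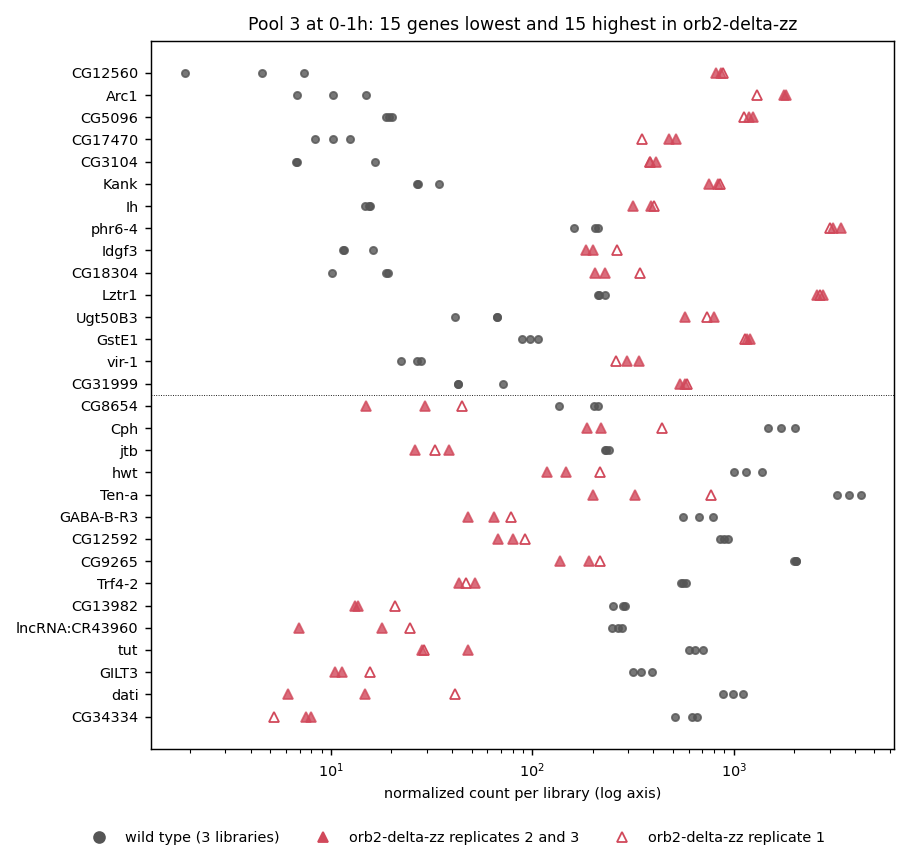
Normalized counts in pool 3 at 0-1h (log axis) of the 15 genes with the lowest and the 15 with the highest log2 difference. They were taken from called genes whose mean reached 100 and whose genotypes did not overlap. Each point is 1 library. The rule fixed that the genotypes are separate and that orb2-delta-zz replicate 1 (open triangle) lies on the side of its own genotype. For CG34334 that replicate is at 5.23, against 513 to 661 in wild type.

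The 15 lowest genes, chosen by the same rule, were 6.45-fold to 76.1-fold below wild type. CG34334 (X, 22872812 to 22875367) had 513, 619 and 661 in wild type and 5.23, 7.55 and 7.96 in orb2-delta-zz (-6.25 ± 0.20, adjusted p = 8.21e-09). Its whole span lies inside CG42346 on the same strand, so the split of reads between them is uncertain. dati, a zinc-finger transcription factor gene on chromosome 4, had 995, 886 and 1112 against 41.3, 6.1 and 14.8 (-5.89 ± 0.53). In both genes every wild-type library lay far above every orb2-delta-zz library. GILT3, for a lysosomal thiol reductase of immune defence, had 393, 318 and 346 against 15.7, 10.5 and 11.4 (-4.72 ± 0.24). tut encodes an RNA-binding partner of Bam that represses translation in the male germ line, and it had 602, 644 and 706 against 29.2, 48.1 and 28.4 (-4.21 ± 0.26). Trf4-2, of the noncanonical poly(A) polymerase family, had 548, 559.7 and 579 against 46.7, 43.2 and 51.8 (-3.55 ± 0.14, adjusted p = 3.14e-08). These genes too were low in every orb2-delta-zz library, which follows in part from the rule that chose them.

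Ten-a, for a teneurin that guides synapse partners, had 3730.3, 3277 and 4273 normalized counts in wild type and 771, 324 and 200.2 in orb2-delta-zz (-3.34 ± 0.46, adjusted p = 0.000853). lncRNA:CR43960 starts at the same base of X (12043698) on the same strand, lies within Ten-a, and fell with it (-4.08 ± 0.41), so reads of the pair may be split uncertainly. GABA-B-R3, a metabotropic GABA receptor gene, had 789.9, 673 and 562 against 78.5, 48.2 and 64.3 (-3.40 ± 0.48). Cph, a zinc-finger gene of neural progenitors, had 2026, 1722 and 1488 against 439, 219.5 and 188 (-2.72 ± 0.38). In Ten-a and Cph the highest of the orb2-delta-zz values was replicate 1. The others were CG13982 (-4.05), CG9265 (-3.49), CG12592 (-3.48), hwt (-2.90), jtb (-2.82) and CG8654 (-2.69). hwt lost its call without replicate 2 of either genotype; the other 14 kept theirs under all 17 alternatives.

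The most abundant called genes changed far less. yip2, for a thiolase, had 5745, 5647 and 6169.9 normalized counts in wild type and 7999, 9449 and 9317 in orb2-delta-zz (0.60 ± 0.09, adjusted p = 0.00188). Idh, for isocitrate dehydrogenase (0.52 ± 0.13), Aldh, for aldehyde dehydrogenase (0.55 ± 0.13), and CG4364 (0.39 ± 0.09) were also higher. Of these 4 genes yip2 kept its call without each gradient in turn, and the other 3 lost it in 5 of those 6 fits. Among the lower ones Ptp61F, a tyrosine phosphatase of JAK/STAT and insulin signalling, stood out with 13773, 16912 and 16151 against 3450.3, 4267 and 4589.9 (-1.93 ± 0.13, adjusted p = 3.95e-06). dnc, the cAMP phosphodiesterase of the learning pathway, had 8805, 7700 and 7401 against 4621, 4209 and 3952 (-0.90 ± 0.13). Sf3b3, for a subunit of the U2 snRNP (-0.67 ± 0.17), the transcription factor gene apt (-0.42 ± 0.10) and Mitf, for a regulator of lysosomal genes (-0.40 ± 0.09), were the others, and each of these 3 lost its call in 4 of the 6 fits that leave out a gradient. On log2(TPM + 1) Ptp61F kept its call and the other 8 of these abundant genes lost theirs.

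Genes that process foreign and internal chemicals leaned higher in orb2-delta-zz. Cytochrome P450 enzymes oxidize lipophilic compounds, and glutathione transferases (Gst) and UDP-glycosyltransferases (Ugt) then attach soluble groups. Of 54 tested members of these families 13 were called higher and 3 lower, that is 24.1% and 5.56%, against 4.45% and 3.13% of all genes. Their median log2 difference was 0.29, against 0.03 over all genes, and the genotypes did not overlap in 28 of the 54, where 26.4% of all genes did not overlap. List medians were 126 to 338 normalized counts per library. In the lowest of the 4 level groups, over all genes, 9.08% were higher and 7.59% lower. Leaving out each gradient gave 9 to 13 members called higher, 13 of them without orb2-delta-zz replicate 1, and 9 were called in every one of these fits. Ugt50B3 had 67.1, 67 and 41.3 normalized counts in wild type and 739.5, 800.2 and 577 in orb2-delta-zz (3.59 ± 0.23, adjusted p = 2.04e-06). Ugt35A1 (2.23 ± 0.16), Ugt36E1 (1.38 ± 0.13), Ugt302C1 (0.51 ± 0.10), GstT3 (1.27 ± 0.13), GstO3 (1.49 ± 0.24) and Cyp311a1 (1.15 ± 0.30) were higher as well. Ugt302C1 lost its call in 2 of the 6 fits and Cyp311a1 in 4. The lower members were Cyp6a17, Cyp4e2 (-0.55 ± 0.07) and GstS1 (-0.58 ± 0.12), the last being an abundant sigma-class enzyme whose call was lost in 4 of the 6 fits.

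Within the Cyp6a cluster the calls went both ways, while the called GstE genes were all higher. On 2R, 6 Cyp6a genes lie between 14871366 and 14884046. Cyp6a9 had 11.2, 9.16 and 18.1 normalized counts in wild type and 83.8, 106 and 86.3 in orb2-delta-zz (2.79 ± 0.30, adjusted p = 0.000113). Its neighbour Cyp6a20, a gene tied to male aggression, had 15, 20.2 and 13.6 against 129, 110.3 and 122 (2.83 ± 0.35, adjusted p = 0.000339). Cyp6a17, tied to temperature preference, went the other way in the same cluster, with 84.7, 92.2 and 98.1 against 34, 32.3 and 38.9 (-1.36 ± 0.21, adjusted p = 0.00188). The other 3, Cyp6a23 (1.24 ± 0.41, adjusted p = 0.112), Cyp6a19 (0.02) and Cyp6a22 (0.00), were not called. Cyp6a17 and Cyp6a23 are close copies, so how reads were divided between the pair is uncertain. Of 10 tested GstE genes 4 were higher, and all 4 lie between 18396638 and 18407688 on 2R. GstE1 had 107, 97.1 and 89.2 normalized counts in wild type and 1138, 1165 and 1204 in orb2-delta-zz (3.57 ± 0.17, adjusted p = 1.5e-07). GstE7 had 55.3, 46.3 and 54.4 against 303, 281 and 352 (2.56 ± 0.21). In GstE3 (2.41 ± 0.59) and GstE10 (1.76 ± 0.37) the highest library was orb2-delta-zz replicate 1, at 108 and 85.4, and the calls were lost in 5 and 3 of the 6 fits. GstE10 and GstE1 overlap on opposite strands. GstE6 lies between GstE3 and GstE7 and had a log2 difference of 0.06 (adjusted p = 0.994). GstE8 (0.37) and GstE9 (0.59), which follow GstE7, were not called either. Further off on 2R, GstE11 (-0.04), GstE12 (-0.18) and GstE13 (0.30) were not called.

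**Figure D2:**
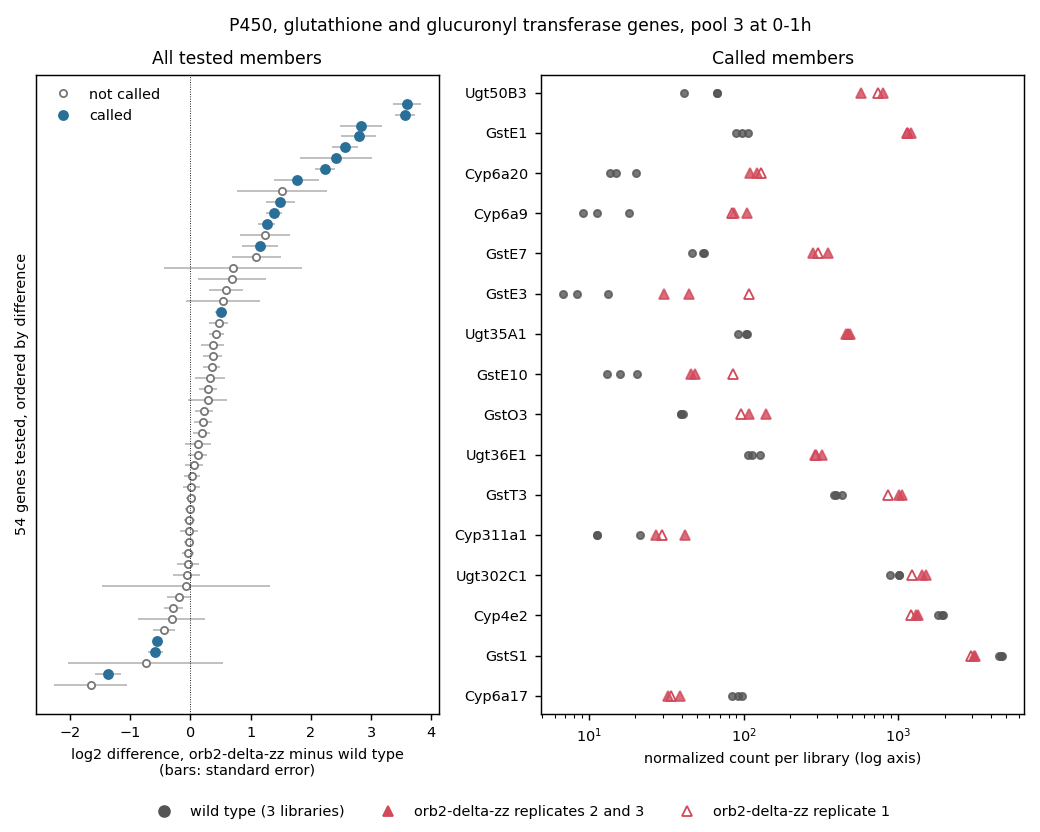
Left, log2 difference (points) with its standard error (bars) of the 54 tested P450, Gst and Ugt genes in pool 3 at 0-1h, filled where called. Right, normalized counts (log axis) of the 16 called members in each library, where 13 lie higher and 3 lower in orb2-delta-zz and the genotypes do not overlap.

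Much of the early zygotic list lay below wild type. Of 80 tested members of a list of genes that the embryo transcribes before or during cellularisation, 41 were called lower and 1 higher, against 3.13% and 4.45% of all genes, and the median log2 difference was -1.60. In the list, Z600, an inhibitor of Cdk1 that halts the nuclear cycles at gastrulation, had 999, 1163 and 1379 normalized counts in wild type and 254, 261 and 177 in orb2-delta-zz (-2.36 ± 0.38, adjusted p = 0.00256). halo, which steers lipid droplets, had 1604, 1706 and 2031 against 405, 435 and 269 (-2.29 ± 0.36). bnk, a brake on the actin network of cellularisation, had 1528, 2463 and 2597 against 502, 641 and 423 (-2.05 ± 0.34). For all 3 genes every orb2-delta-zz library lay below every wild-type library. The genotypes did not overlap in any of the 571 called genes, so this is not a separate result. CG6885 (-2.32 ± 0.49) lost its call without wild-type replicate 2.

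Patterning genes among the lower members, named as examples after their values were seen, included gap genes (Kr, -1.77 ± 0.37; kni, -1.87; gt, -1.78; tll, -1.75; hkb, -1.59), pair-rule genes (ftz, -1.65 ± 0.25; eve, -1.70; prd, -1.61; run, -1.27) and the JAK/STAT ligand gene upd1 (-1.90 ± 0.33). Dorsal-ventral genes were among them too, on the ventral side twi (-1.79 ± 0.32) and sna (-1.44), and on the dorsal side zen (-1.70), tld (-1.87), scw (-1.54) and dpp (-1.47 ± 0.40). The sex-chromosome counting genes sisA (-1.79) and sc (-1.32) were lower as well. fog, the ligand that starts ventral furrow formation, was the mildest, with 4171, 4373 and 4703 normalized counts against 2479, 2901 and 2848 (-0.69 ± 0.11). T48, which acts with fog in apical constriction, was the member called higher, with 1331, 1321 and 1396 against 1557, 1766 and 1802 (0.34 ± 0.09, adjusted p = 0.0373). T48 lost its call in 5 of the 6 fits without a gradient, and fog kept its own in all 6.

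The list was uneven across libraries. Its median level was 222, 412 and 423 normalized counts in wild type, where replicate 1 was the lowest of the 3 for 76 of the 80 genes. In orb2-delta-zz it was 175, 108 and 73.5. Replicates 2 and 3 lay below the lowest wild-type library for 74 and 75 of the 80 genes, and replicate 1 for 51. Replicate 1 was the highest of all 6 libraries for 8 of them. The late-embryo markers, a list for the tissues of older embryos, moved with that library. Of 26 members 11 were listed, and their summed level was 19139 to 21037 normalized counts in wild type and 47618, 18582 and 19955 in orb2-delta-zz. Their median level was less even, at 190, 73.8 and 54.6 in wild type and 2133, 24.6 and 66.6 in orb2-delta-zz. By that median wild-type replicate 1 was the highest of its genotype. None of the 11 was called by limma, and their median log2 difference was 0.23. At an unadjusted p under 0.05 there were 0 of them as well, against 1209 of all 7533 genes. Without orb2-delta-zz replicate 1 the median was -0.92 and 4 of the 11 were called lower. brp, the active-zone gene of neurons, had 332 normalized counts in orb2-delta-zz replicate 1 and 1.68 to 16.2 elsewhere. The part of older embryos in the zygotic difference was not tested. Without orb2-delta-zz replicate 1 the list's median was -1.89 and 62 members were called lower. The count was 13 without wild-type replicate 2, 21 without wild-type replicate 3, and 25 and 24 without replicates 2 and 3 of orb2-delta-zz, and 13 members were called lower in every such fit. Those 13 were Z600, halo, bnk, fog, term, upd1, gt, eve, ftz, Elba1, CG14427, CG15876 and CG16813. Of the other patterning genes named, twi and zen lost their calls in 1 of the 6 fits, tll, prd, tld and scw in 2, Kr and kni in 3, and hkb, run, sna, dpp, sisA and sc in 4.

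**Figure D3:**
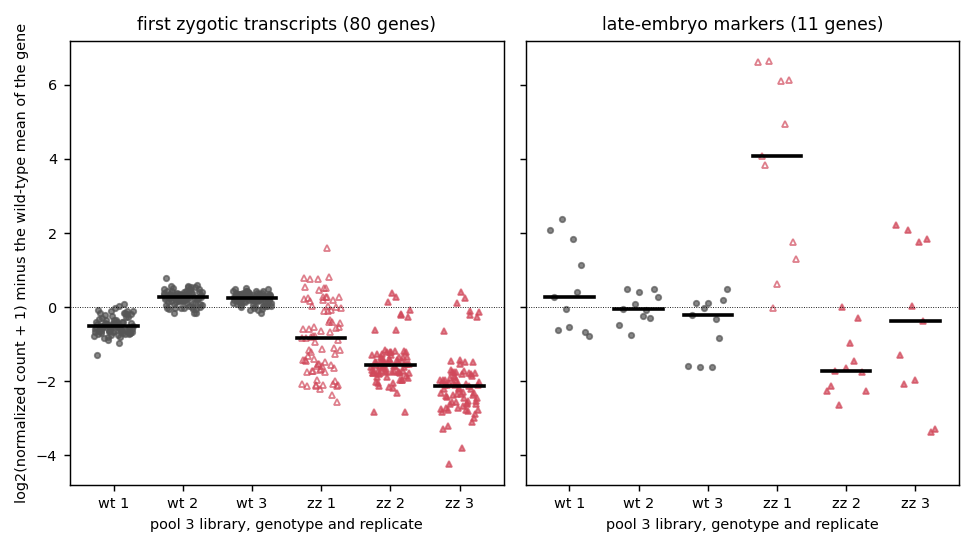
log2(normalized count + 1) in each pool 3 library at 0-1h, minus the wild-type mean of the same gene, for 80 early zygotic transcripts (left) and 11 late-embryo markers (right); wt is wild type, zz is orb2-delta-zz, numbers are replicates, points are genes and black lines are medians. Replicates 2 and 3 of orb2-delta-zz lie below wild type on the left, while replicate 1 is spread widely on the left and high on the right.

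Of 41 classic maternal transcripts 2 were higher (4.88%) and none (0) lower, with a median of -0.01. The share called higher was near the 4.45% of all genes. cort, the meiotic activator of the anaphase-promoting complex, had 972, 955 and 891 normalized counts in wild type and 1572, 1656 and 1603 in orb2-delta-zz (0.78 ± 0.09, adjusted p = 0.000197). grk, the oocyte's ligand for the EGF receptor, had 514, 476 and 543 against 671, 697 and 662 (0.41 ± 0.10, adjusted p = 0.0313). cort kept its call without each gradient, and grk lost it in 5 of those 6 fits. Among 31 genes of the piRNA pathway, which silences transposons in the germ line, 2 were called (6.45%), near the 7.58% of all genes. piwi was higher at 7839.7, 9555 and 9042 against 5309, 5589.6 and 5464 (0.69 ± 0.10, adjusted p = 0.000847). Hen1, the enzyme that methylates piRNA ends, was lower (-0.63 ± 0.16, adjusted p = 0.038), and its call was lost in 4 of the 6 fits. On log2(TPM + 1) cort, grk, piwi and Hen1 were not called. lncRNA:flam, the transcript of a piRNA cluster on X, had 75.3, 47.2 and 59.1 normalized counts against 16.8, 9.41 and 9.88 (-2.26 ± 0.42, adjusted p = 0.00664). limma called none (0) of 8 tested RNAs reported as Orb2 targets in brain or testis, 33 RNA-binding and decay factors and 19 germ plasm genes. Of all genes 7.58% were called. At an unadjusted p under 0.05, which 1209 of all 7533 genes reached, these lists gave 0, 1 and 2 genes. Their median log2 differences were -0.10, 0.06 and 0.14. Without orb2-delta-zz replicate 1, 2 Orb2 targets were called lower, and 1 RNA-binding or decay factor and 3 germ plasm genes higher. All genes gave 467 higher and 431 lower in that fit. On the 5 pool 3 libraries other than that replicate, 4 Orb2 targets were lower and 7 germ plasm genes higher. All genes then gave 959 higher and 572 lower.

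The counts of the translation and housekeeping lists stand beside 7.58% of all genes called and 1.22% in the most abundant of the 4 level groups. limma called none (0) of 86 cytosolic ribosomal protein genes, 45 translation factors, 66 nuclear genes of oxidative phosphorylation, 31 histone genes and 69 small nuclear and nucleolar RNAs. At an unadjusted p under 0.05, which 1209 of all 7533 genes reached, these lists gave 2, 4, 0, 1 and 2 genes. Their medians ran from -0.12 (histones) to 0.10 (ribosomal proteins). mRpS23, of the mitochondrial ribosome, was the member called among 71, with 671, 612 and 575 normalized counts against 1104, 1115 and 1086 (0.83 ± 0.14, adjusted p = 0.00281). In the proteasome list Prosalpha1R (-1.48 ± 0.14) and Prosalpha1 (-1.26 ± 0.33) were called lower among 34, but they are neighbouring copies of 1 subunit gene on 2R and how reads were split between them is uncertain, and Prosalpha1 lost its call in 4 of the 6 fits without a gradient. Of 36 cell-cycle genes 8.33% were called and of 27 cellularisation genes 11.1%, against 7.58% of all genes. Among the cell-cycle genes Orc6 (0.47 ± 0.12), of the replication origin complex, was higher beside cort, and Z600 was lower, and Orc6 lost its call in 4 of the 6 fits. Among the cellularisation genes halo, bnk and nullo (-1.41 ± 0.33) were lower, and nullo lost its call in 5 of the 6 fits without a gradient. Hsp68 (-0.85 ± 0.18) was the 1 heat-shock gene called of 15, and it lost its call in 3 of the 6 fits. Of 8 dosage compensation genes and 7 of the peptidoglycan recognition and serpin families none (0) was called, with 1 and 2 at an unadjusted p under 0.05.

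Defence genes and noncoding RNAs gave calls in both directions. Of 9 immune genes 3 were called (33.3%, against 7.58% of all genes). The thioester proteins Tep2, with 80.7, 131 and 151 normalized counts against 316, 324 and 313 (1.43 ± 0.24), and Tep4 (1.33 ± 0.26) were higher, and GILT3 was lower. Tep4 lost its call without orb2-delta-zz replicate 2. Of 100 long noncoding RNAs 4 were higher (4%) and 10 lower (10%), against 4.45% and 3.13% of all genes. They were scarce, with list medians of 22.0 to 31.9 normalized counts per library. In the lowest of the 4 level groups, over all genes, 9.08% were higher and 7.59% lower. The count of lower long noncoding RNAs was 5 without wild-type replicate 2, 6 without wild-type replicate 3 and 18 without orb2-delta-zz replicate 1. lncRNA:CR46064 (2R, 4782892 to 4785543) had 637, 557 and 523 normalized counts in wild type and 125, 77.6 and 70.4 in orb2-delta-zz (-2.68 ± 0.20, adjusted p = 6.87e-06). lncRNA:CR44357 (-2.40 ± 0.18) was lower too, and so was lncRNA:CR44294 (-2.50 ± 0.50), with 25 counts or fewer in every pool 3 library. The call of lncRNA:CR44294 was lost without replicate 2 or replicate 3 of wild type, and on the 6 pool 3 libraries alone. lncRNA:CR44357 overlaps Cph on the opposite strand over 75482 bases. Of 62 antisense RNAs 7 were higher (11.3%) and 3 lower (4.84%), against 9.08% and 7.59% in the lowest level group. These RNAs were scarce as well, with list medians of 21.5 to 27.7 normalized counts per library. The higher ones were led by asRNA:CR43469 (2.74 ± 0.34) and asRNA:CR43468 (2.63 ± 0.44), which lie next to each other on 2R. With quantile normalization 3 antisense RNAs were higher and none (0) lower, and among those with a mean of at least 50, as on log2(TPM + 1), 2 were higher and 2 lower. Leaving out a gradient gave 3 to 8 higher and 1 to 5 lower. The library kit keeps strand, but the sources used here do not give the strand setting of the counting, so an antisense RNA and its partner may not be fully separated.

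The share of genes called was higher on chromosome 2 than on chromosome 3, as a description with no test. On chromosome 2, 10.4% of tested genes on 2L and 9.22% on 2R were called, against 4.95% on 3L and 4.93% on 3R. The X gave 9.01%, and the small chromosome 4 gave 17.3%, or 13 of 75 genes. The higher genes made up most of this contrast, with 6.83% of genes higher on 2L and 2.20% on 3L. Of 175 genes on 3L within 1 Mb of orb2 6 were higher and 5 lower, or 6.29%. Slc45-1, a sugar transporter family gene 0.249 Mb from orb2, had 3.74, 9.68 and 7.62 normalized counts in wild type and 161, 112 and 92.5 in orb2-delta-zz (3.98 ± 0.37, adjusted p = 3.63e-05). The others of the 10 nearest called genes were Galk (0.31), Argk2 (-0.95), Use1 (0.54), GstO3, CG13667 (-0.61), Idh, Culd (1.75), lncRNA:CR45409 (-0.69) and tut. Galk and Idh lost their calls in 5 of the 6 fits without a gradient, Use1 and CG13667 in 4, lncRNA:CR45409 in 2 and Argk2 in 1. Called genes often lay beside each other: 18.6% of the higher genes had a neighbouring tested gene that was also higher, against 8.08% of uncalled genes, and for the lower genes the shares were 19.6% and 5.47%. Overlapping pairs such as Ten-a and lncRNA:CR43960 are counted in these shares. By kind, 13.9% of 180 noncoding RNAs and 7.50% of 7200 protein-coding genes were called. The lowest of the 4 level groups, over genes of all kinds, gave 16.7%. The longest transcript had a median of 1990.5 bases for higher, 1770 for lower and 2100 for uncalled genes.

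Most differences had the same direction at the later hours, which were measured in other embryos. Of the 332 higher genes tested in pool 3 at 1-2h, 327 were also above wild type, and 178 were called higher (53.6%), against 3.53% of all genes tested at that hour. At 2-3h it was 241 of 323 by sign and 121 called higher (37.5%, against 9.71% of all genes). Of the 236 lower genes 235 were below wild type at 1-2h, where 137 were called lower (58.1%, against 5.04%), and 202 of 232 at 2-3h, where 95 were called lower (40.9%, against 4.97%). At all 3 hours 101 genes were called higher and 75 lower. All 30 genes at the extremes were called the same way at 1-2h. At 2-3h 12 of the 15 highest and 10 of the 15 lowest were. CG12560 stayed far apart (6.73 at 1-2h, 7.10 at 2-3h), whereas Lztr1 went from 3.61 through 1.88 to -0.30 (adjusted p = 0.559) and CG9265 from -3.49 through -3.04 to 0.53 (adjusted p = 0.635).

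The gene groups are given at the later hours by their own counts. Of all genes tested 3.53% were called higher and 5.04% lower at 1-2h, and 9.71% and 4.97% at 2-3h. Of the 13 higher P450, Gst and Ugt genes 9 of 11 tested were called higher at 1-2h and 8 of 10 at 2-3h, among them Ugt50B3 (3.86 and 3.03), GstE1 (3.43 and 2.95) and Cyp6a20 (3.70 and 3.48). Cyp6a9 was not tested at the later hours. The 3 lower members of these families were tested at both hours, and none (0) was called lower at either. Of the zygotic list 56 of 80 members were called lower at 1-2h and 29 at 2-3h, with medians of -1.03 and -0.87. Z600 had log2 differences of -1.09 and -0.82 there. The 41 classic maternal transcripts had 3 called higher and 1 lower at 1-2h, with a median of 0.17. At 2-3h they went the other way from the zygotic list, with 21 higher, none (0) lower and a median of 0.77. The maternal list was thus near 0 in the hour studied here, at -0.01. Changes between hours were not tested as such.

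**Figure D4:**
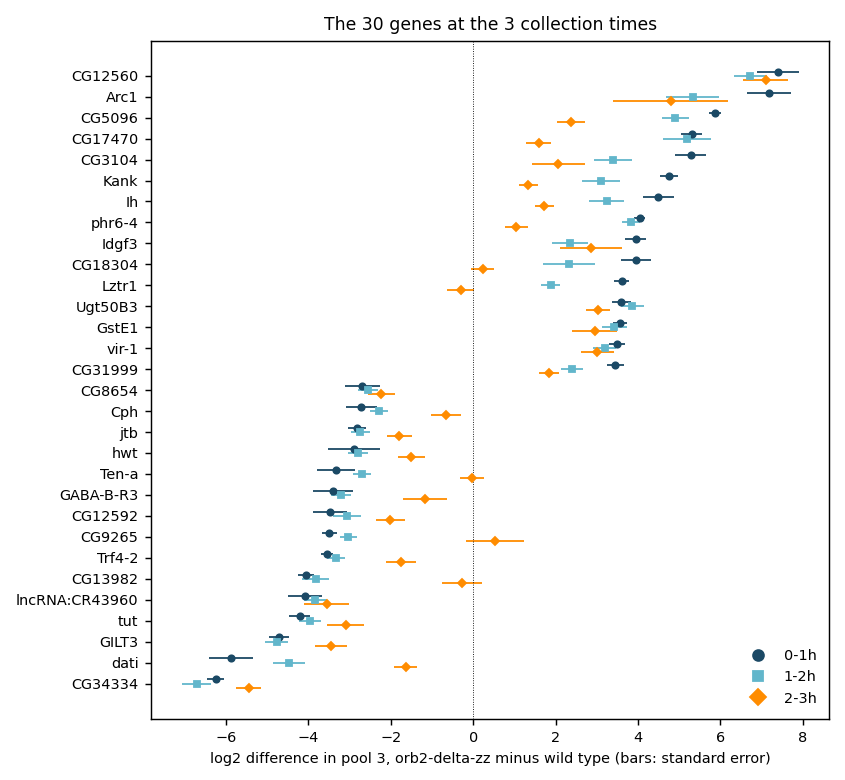
log2 difference in pool 3, orb2-delta-zz minus wild type, with standard errors, for the 30 genes at the extremes at 0-1h (circles), 1-2h (squares) and 2-3h (diamonds). CG12560 is at 7.39, 6.73 and 7.10, while Lztr1 goes from 3.61 to -0.30.

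The genes called at 0-1h were also followed in wild type, without a test between groups. From 1-2h to 2-3h in pool 3, 19.3% of 306 genes that were higher in orb2-delta-zz rose and 38.2% fell on log2(TPM + 1), against 25.4% and 42.3% of all 8026 genes tested. Their median change was -0.31, against -0.13 over all genes. Of 233 genes that were lower in orb2-delta-zz 36.9% rose and 33.9% fell, with a median of 0.06. Leaving out the zygotic list the lower genes numbered 192, of which 30.7% rose and 38.5% fell. Shares this close to those of all genes say little about the called genes outside the zygotic list.

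The last question was whether the genotype difference in pool 3 differed from that in pool 1 of the same gradients. Called in pool 1 were 756 genes (10%), and 393 of the 571 pool 3 calls were called the same way there, in libraries from the same lysates. The difference between the pools was called for 39 genes (0.518%), 21 toward pool 3 and 18 toward pool 1 in orb2-delta-zz. In 31 of the 39 the genotype difference had opposite signs in the pools, and 28 were not called within pool 3. Tgt, whose enzyme puts queuosine into tRNA, had 1059, 1033 and 1151 against 458, 539 and 506 in pool 1 and 604, 660.3 and 681 against 833, 1022 and 1142 in pool 3 (interaction 1.72 ± 0.17, adjusted p = 0.00086). The genotypes of Tgt did not overlap in either pool and lay in opposite order. CG9356 (1.52 ± 0.15), CG31650 (1.42 ± 0.14) and GstT1, a theta-class glutathione transferase gene (1.24 ± 0.19), were others toward pool 3.

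CG6180 was the largest in the other direction. In pool 1 it had 778, 988 and 1353 normalized counts in wild type and 4638, 5446 and 5687 in orb2-delta-zz. In pool 3 it had 5093, 4187 and 4040.3 against 2243, 2666 and 2777 (interaction -3.16 ± 0.26, adjusted p = 0.000546). Its pool 3 difference of -0.79 at 0-1h (adjusted p = 0.0206, lost in 4 of the 6 fits without a gradient) was -2.73 at 1-2h and -4.33 at 2-3h. Sting, the receptor of cyclic dinucleotides in antiviral defence, was not called in pool 3 (-0.22 ± 0.13, adjusted p = 0.479) and higher in orb2-delta-zz in pool 1, at 1200.3, 1692 and 1569 against 489.8, 593 and 475 (interaction -1.73 ± 0.18, adjusted p = 0.000886). CG9328 (-1.70 ± 0.15), CG12547 (-1.31 ± 0.18) and CBP (-1.22 ± 0.15) were the next. These 3 genes were also not called within pool 3. The interaction count was 10 without wild-type replicate 2, 15 without wild-type replicate 3, and 9 and 10 without replicates 2 and 3 of orb2-delta-zz. CG12547 and GstT1 lost their calls in each of those 4 fits, and CBP in 3 of them. On log2(TPM + 1) CG9328, CG12547, CBP, CG31650 and GstT1 were not called, and the other 4 named genes kept their calls.

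**Figure D5:**
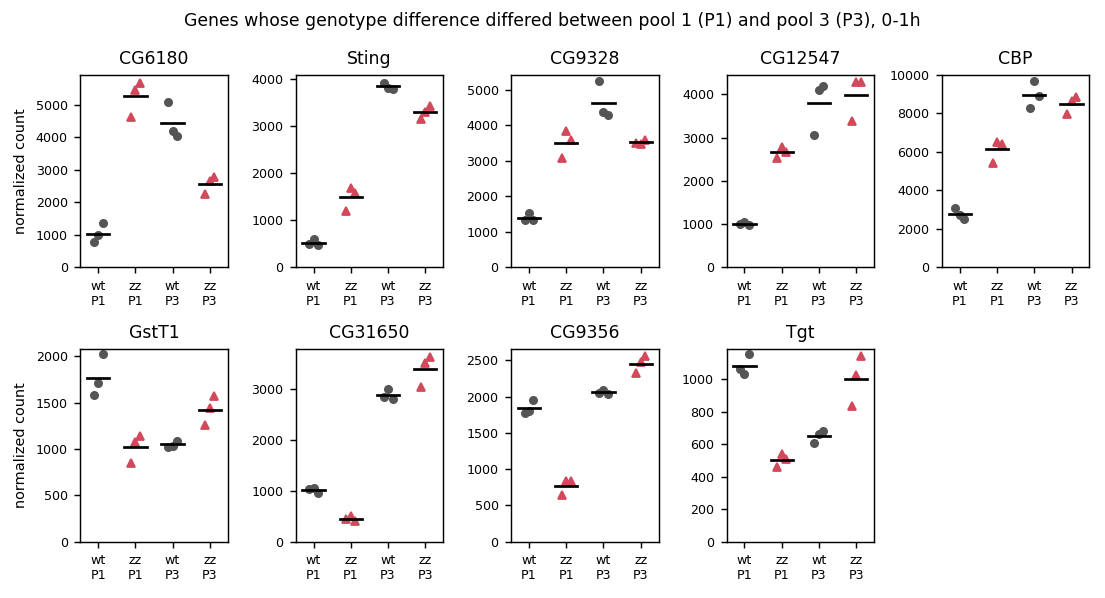
Normalized counts at 0-1h in pool 1 (P1) and pool 3 (P3) of 9 genes with called differences between the pools; points are libraries (circles wild type, triangles orb2-delta-zz) and black lines are means. The orb2-delta-zz points of Tgt and CG9356 lie below wild type in pool 1 and above it in pool 3, and those of CG6180 do the reverse.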

How the data were processed

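Embryo RNA from sucrose gradient pools was depleted of ribosomal RNA and sequenced as stranded libraries, per the labels' protocols. Tools named in the submitters' processing notes were DESeq2 1.42.1, Salmon 1.9.1 and Trim Galore 0.6.5; no genome build is named there. Normalized counts, a signal already scaled within each hour, and TPM values were deposited by the authors. Neither is a raw count, so no count model was used and no counting intervals were computed. Depth was estimated from the spacing of low values, using transcripts of 1500 bases or more (within 0.15 of a step), and covers counting only.

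Samples were grouped by genotype, hour and pool from the labels. limma 3.58.1 (R 4.3.3, trend) was fitted to log2(normalized count + 1) for genes whose mean over the 12 libraries of an hour reached 10, with a mean per group and a two-sided Benjamini-Hochberg threshold of 0.05. It was tested on simulated data. The contrasts were the genotype difference in pool 3, that in pool 1, their difference (the interaction), and, on log2(TPM + 1) of genes with a mean TPM of at least 1, the wild-type change in pool 3 from 1-2h to 2-3h. Ensembl release 115 (BDGP6) gave symbols and positions by gene ID; IDs without a symbol were tested but not named. Tables were made with Python 3.11.15, pandas 2.3.3 and numpy 2.4.6, figures with matplotlib 3.10.9.

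Genes named were, of called genes with a mean of 100 or more and no overlap, the 15 at each end of the log2 differences, up to 4 called members per list, 5 interaction genes each way, 10 called genes within 1 Mb of orb2, the 5 most abundant each way, and orb2, except 1 gene that is not reported here; further zygotic, P450, Gst, Ugt and marker genes were named as examples after their values were seen. The comparison, the 27 lists and their members were chosen with earlier results of these data known. Mitochondrially encoded RNAs had no tested member (0), and the egg-shell and adult tissue lists had 1 each, not called (summed level over listed members 51.3 to 94.5 and 1185 to 1554 normalized counts). Same-numbered libraries of the genotypes did not deviate together in pool 3 (correlations of -0.0944, -0.0592 and 0.0111) but did weakly in pool 1 (0.2225, 0.1515 and 0.2437). The labels name no shared batch. Pools 1 and 3 of a number, from 1 gradient, deviated together (0.12 to 0.76). Pools 1 and 3 of unlike numbers within a genotype gave -0.7 to 0.50, so these values do not isolate a shared gradient. Alternatives were other pseudocounts, filters, scalings, TPM, library subsets, blocks and weights. Promoter motifs and GC content were not analysed here.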

Additional observations from a re-analysis of the deposited data

Results flagged for a closer look

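Genotype differences that differed between pool 3 and pool 1 at 0-1h by limma's interaction test were those of CG6180 (-3.16), Sting (-1.73), CG9328 (-1.70), CG12547 (-1.31), CBP (-1.22), Tgt (1.72), CG9356 (1.52), CG31650 (1.42) and GstT1 (1.24), given as the log2 difference in pool 3 minus that in pool 1. On log2(TPM + 1) 5 of these 9 were not called, CG9328, CG12547, CBP, CG31650 and GstT1.

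In pool 3, 9 genes were called in opposite directions at 0-1h and 2-3h, with no overlap between the genotypes at either hour. The difference between the hours was not tested. CG10561 went from -0.80 at 0-1h to 1.15 at 2-3h, and Mctp, for a calcium-binding membrane protein, from -0.53 to 2.07. Elp2, an Elongator subunit gene, went from 0.76 to -1.34, with 363, 227 and 377 normalized counts in wild type and 184, 125 and 80.8 in orb2-delta-zz at 2-3h. The neighbours CG4676 (1.28 to -1.20) and CG4679 (0.29 to -1.08) moved alike. The others were CG14223 (0.89 to -0.82), CG11109 (0.41 to -0.89), CG30466 (0.93 to -1.56) and asRNA:CR42871 (0.69 to -1.22). These 9 were singled out after their values were seen. The 0-1h calls of CG4679 and asRNA:CR42871 were lost in 5 of the 6 fits without a gradient, those of CG11109 in 4, Elp2 in 3, and CG14223 and Mctp in 2. On log2(TPM + 1) the 0-1h calls of CG4676 and CG30466 were kept and the other 7 lost.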

How the results depend on the processing

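With log2(TPM + 1) 330 genes were called (139 higher, 191 lower) and 14 by interaction, and with library weights 2936 (1997 and 939), 77 zygotic members lower and 1326 by interaction. Upper-quartile scaling gave 82 interaction calls and quantile normalization 81. Fitting the 5 pool 3 libraries other than orb2-delta-zz replicate 1, chosen after seeing the data, gave 1531 (959 and 572) with 71 zygotic members lower. Leaving out 1 gradient gave 256 to 898 genes (160 to 467 higher, 96 to 431 lower), 13 to 62 zygotic members lower and 9 to 40 interaction calls. Fits without a gradient also hold fewer samples, and the cause of these changes was not tested. With the replicate block, whose numbers do not pair the genotypes in pool 3 but meet the criterion of correlations over 0.1 in pool 1, 631 genes were called, 52 by interaction and 903 in pool 1 (756 without it). It ended no call among the named interaction genes, and not every pool 3 library correlated best with its own number. The gradient as a correlated block gave 582 and 56, and changed no call among the named interaction genes. Under other settings the counts over all genes, of zygotic members called lower, of interaction calls and at other hours stayed within 1.5 times the reported values. Counts of short lists moved more: with quantile normalization 2 long noncoding RNAs were higher (4 reported), and with a mean of at least 50 the median of the P450, Gst and Ugt genes was 0.19 (0.29 reported) and that of antisense RNAs 0.22 (-0.07 reported). Of named genes' pool 3 differences under all alternatives, 154 comparisons lost a call, 19 gained one and none (0) changed sign while called. Differences in genes near the floor of low counts are limited by depth, and genes at 0 in any library of an hour are not analysed here.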
